A study of Rattus norvegicus with 11 samples.

Results

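The EGF receptor family and its ligands were followed by 8 genes, which were all the rows of the expression table named Egfr, Erbb2, Erbb3, Areg, Ereg, Hbegf, Tgfa and Btc, out of 18507 genes. The table came from RNA-seq of bladders of female Sprague-Dawley rats aged about 0.5 year, and its 11 samples fell into 4 groups. PBOO, partial bladder outlet obstruction, was made by tying a ligature around the bladder neck and urethra over a catheter that was then withdrawn, so that the bladder emptied against a narrowed outlet. There were 3 PBOO and 3 normal samples at week 4, and 2 PBOO and 3 normal samples at week 5. The labels call the controls normal and those of week 5 also adult, and the study's methods describe control animals that were opened but not ligated. The model is thus a mechanical narrowing in otherwise healthy female animals. The study's text calls the samples of a group biological replicates, but the labels do not tie them to separate animals, so the p-values measure the spread between samples.

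EGF family ligands are made as membrane-anchored precursors and are released when proteases, chiefly ADAM17, cut them at the cell surface. A ligand joins its receptor to a partner receptor, and the pair then signals through the RAS-ERK and PI3K-AKT routes. EGFR binds amphiregulin, epiregulin, betacellulin, TGF-alpha and HB-EGF. ERBB3 binds some but not all of the neuregulins and has a very weak kinase, and ERBB2 binds no known ligand and serves as the shared partner. In the bladder these receptors sit mainly on the urothelium, the lining epithelium, where they take part in growth and in repair after injury.

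Areg, Btc and Ereg were neighbours on chromosome 14, with no other protein-coding gene between them in the RefSeq order, and Egfr lay on the same chromosome. The bases just before the annotated start of 3 of them, from the RefSeq promoter table of the rat build GRCr8, are shown because Areg and Btc are neighbouring ligand genes whose promoters held different motifs, and Egfr encodes the receptor of both. All run 5′ to 3′ on the gene's own strand. Capitals mark a match to the GC box GGGCGG or its reverse complement CCGCCC, to the cAMP response element TGACGTCA or to the TATA box TATAAA.

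Areg, chr14:17265642-17265891, minus strand: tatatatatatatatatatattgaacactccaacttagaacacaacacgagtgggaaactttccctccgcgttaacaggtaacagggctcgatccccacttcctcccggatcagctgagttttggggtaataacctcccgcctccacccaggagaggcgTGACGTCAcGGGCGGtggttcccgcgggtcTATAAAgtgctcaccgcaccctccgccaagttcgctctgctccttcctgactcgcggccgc

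Btc, chr14:16992418-16992667, plus strand: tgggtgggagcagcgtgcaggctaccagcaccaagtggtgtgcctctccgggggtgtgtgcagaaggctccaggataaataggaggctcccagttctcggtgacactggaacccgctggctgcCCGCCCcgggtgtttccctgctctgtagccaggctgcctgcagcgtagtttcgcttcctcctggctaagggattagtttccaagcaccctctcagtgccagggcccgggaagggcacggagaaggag

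Egfr, chr14:95378376-95378625, plus strand: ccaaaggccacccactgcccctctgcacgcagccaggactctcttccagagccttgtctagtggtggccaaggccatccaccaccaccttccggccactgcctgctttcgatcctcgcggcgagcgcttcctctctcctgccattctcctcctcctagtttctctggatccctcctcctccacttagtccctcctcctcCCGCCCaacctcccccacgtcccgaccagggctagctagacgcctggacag

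In the Areg promoter the cAMP response element began 91 bases before the start, the GC box 82 bases and the TATA box 61 bases before it. The GC box match began 127 bases before the start of Btc and 51 bases before that of Egfr. Of 33469 rat promoters of 300 bases, 33.1% held a GC box on either strand, 14.2% a TATA box and 1.83% the cAMP response element. Of 5 members scanned (Egfr, Erbb2, Areg, Tgfa and Btc), all 5 held a GC box, Areg alone held the other 2 motifs, and none held the AP-1 site TGANTCA, which 7.33% of promoters held.

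Levels are given as FPKM, fragments per kilobase of transcript scaled to each library's mapped fragments, and differences as PBOO minus normal of log2(FPKM + 0.1), on which low genes appear to change less than they do. Each sample's sequencing depth is unknown, because the table holds FPKM and no counts. The test was limma with an unadjusted p threshold of 0.05, and every p-value printed is adjusted over all genes by the Benjamini-Hochberg method. A gene is said to rise or fall where it passed the unadjusted threshold, and its adjusted p-value then shows whether it also passed after adjustment. Genes with a mean under 0.5 FPKM in a comparison were not tested, which left 7 of the 8 members in each week, without Ereg. Those 7 members were above 0 in all 11 samples.

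The samples differed in their makeup of cell types before any member was considered. Summed FPKM over 14 urothelial markers ran from 7212 to 9227 in normal and from 4320 to 5473 in PBOO bladders at week 4, and from 8351 to 11025 in normal and from 10666 to 11435 in PBOO bladders at week 5. The sum over 9 smooth muscle markers was 25652 to 27712 in normal and 51236 to 82457 in PBOO samples at week 4. At week 5 that sum was 24972 to 29229 in normal samples and 996 to 1863 in the 2 PBOO samples, in which 7 fibroblast markers also summed to 119 to 171 against 1509 to 1897. Urothelial and smooth muscle markers were thus found in all groups, with Krt7 and Upk3b of the urothelial list at 0 in every week 4 sample. Immune markers went the other way at week 5, with 5 of 5 neutrophil markers higher in PBOO samples (sum 14.6 to 451 FPKM against 0.605 to 3.87 FPKM), 3 of 6 macrophage and monocyte markers higher (249 to 672 against 31.9 to 82.5 FPKM) and 3 of 3 tested lymphocyte markers higher (7.58 to 30.9 against 1.31 to 4.30 FPKM). The urothelial list was mixed at week 5, with 3 of 14 markers higher and 7 lower by the unadjusted test. Among all genes 24.6% were higher and 18.8% lower. Krt5, a keratin of basal cells, rose by 3.52 on the log2 scale (limma, adjusted p = 0.00893), with a mean of 1820 and an SD of 1471 FPKM in PBOO samples. Krt20, a keratin of the outermost cells, fell by 6.47 (limma, adjusted p = 0.00076). Of the other urothelial markers, Upk2 fell by 2.39 (limma, adjusted p = 0.000532), while Upk3a differed by 0.03 (adjusted p = 0.901). Both week 5 PBOO samples held little RNA of muscle and stroma beside the other 9. The part of this difference in any result below was not tested, and in bulk samples fewer cells of a type and less RNA per cell cannot be told apart. Among the normal samples of week 4, replicate 1 stood apart from replicates 2 and 3, with sums of 1072 against 3979 and 4043 FPKM for the fibroblast, 65.3 against 361 and 418 FPKM for the macrophage and 2.32 against 77.7 and 76.0 FPKM for the neutrophil markers. That sample also held the highest normal values of Egfr, Erbb2, Erbb3 and Tgfa at week 4. Across the weeks, 4871 genes were listed at 0 in every week 4 sample and 403 in every week 5 sample, so levels were tested within a week only.

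**Figure D1:**
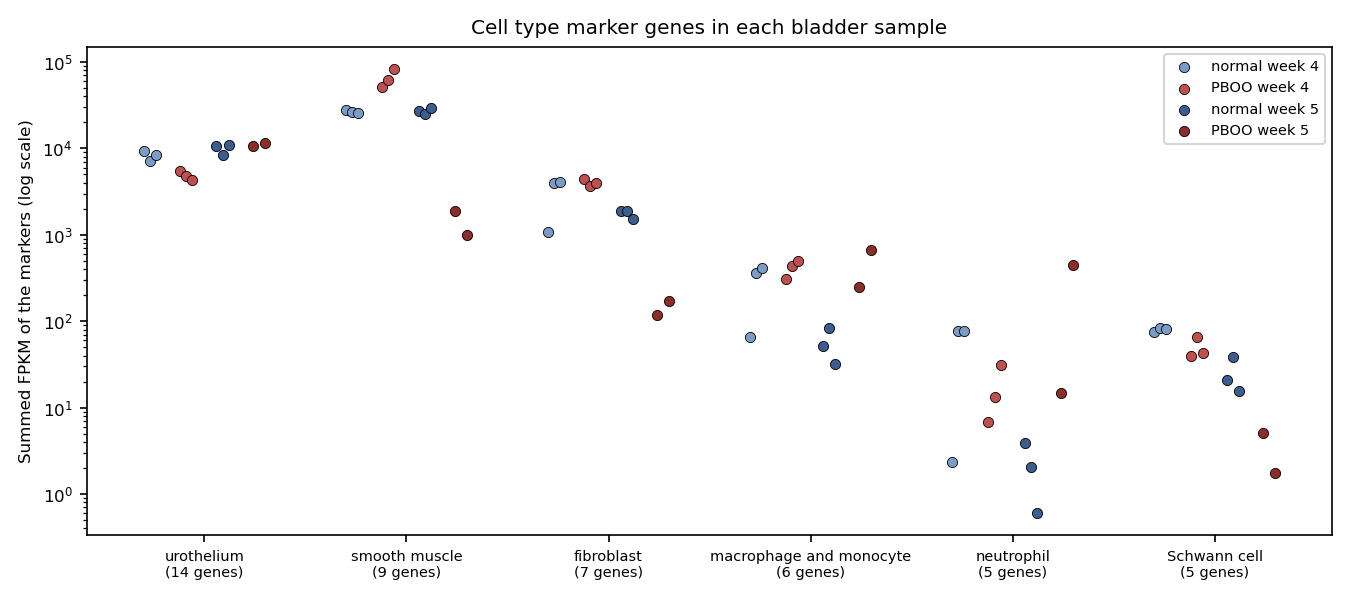
Summed FPKM, on a log scale, of marker lists in each sample, with points coloured by condition and week. The lists on the horizontal axis are urothelium, smooth muscle, fibroblast, macrophage and monocyte, neutrophil and Schwann cell. Smooth muscle markers sum to 996 to 1863 in the PBOO samples of week 5 and to 24972 or more in the other 9 samples.

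Among the receptors, Erbb2 and Erbb3 rose in the obstructed bladder at week 5, whereas no receptor passed the test at week 4. At week 5, 2 of 3 receptors and 1 of 4 tested ligands were higher, against a background of 24.6% of all 13685 genes tested that were higher and 18.8% that were lower. With adjusted p-values the same 3 members passed, against 15.5% of genes higher and 14.5% lower. At week 4, 1 member was higher and 1 lower by the unadjusted test, against 5.76% of 11320 genes higher and 26.2% lower. No member passed with adjusted p-values in week 4, where 0.512% of genes did.

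Erbb2 was the most abundant member in every group mean. At week 5 it measured 42.4, 38.6 and 44.8 FPKM in normal bladders and 85.3 and 59.6 FPKM in PBOO bladders. Both obstructed samples lay above all 3 normal ones. Groups that did not overlap, with PBOO higher, were found for 3 tested members and for 35.3% of all genes tested, and with PBOO lower for 2 members and 25% of genes. The fold was 1.70, a log2 difference of 0.77 (SE 0.18, limma, adjusted p = 0.028). With median-ratio scaling the adjusted call was lost (0.67, limma, adjusted p = 0.0629), and in 1 fit over all 11 samples the unadjusted call was lost too (adjusted p = 0.128).

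At week 4 Erbb2 measured 24.6, 17.7 and 15.9 FPKM in normal bladders and 19.1, 11.5 and 6.89 FPKM in PBOO bladders. The groups overlapped, because PBOO replicate 1 lay within the normal range. The log2 difference was -0.73 (SE 0.36, limma, adjusted p = 0.206), which did not pass. Without PBOO replicate 1 it was -1.09 and passed (limma, adjusted p = 0.0466), and without PBOO replicate 3 it was -0.36 (adjusted p = 0.452).

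Erbb3, a receptor of some neuregulins, followed Erbb2 at a lower level. At week 5 it measured 10.8, 12.3 and 11.6 FPKM in normal and 20.3 and 17.2 FPKM in PBOO samples, with no overlap. It was 1.61-fold higher under obstruction, a log2 difference of 0.69 (SE 0.14, limma, adjusted p = 0.0166). The adjusted call of Erbb2 was lost without any 1 of the 3 normal samples (limma, adjusted p = 0.0751 to 0.099), and that of Erbb3 without normal replicate 1 or 3 (adjusted p = 0.0876 and 0.0671), while the unadjusted calls held.

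At week 4 the values of Erbb3 were 11.97, 11.1 and 9.24 FPKM in normal samples against 10.9, 8.24 and 6.01 FPKM in PBOO samples, which overlapped. They differed by -0.39 on the log2 scale (SE 0.23, limma, adjusted p = 0.265), which did not pass, and without PBOO replicate 1 by -0.60, which passed the unadjusted test (adjusted p = 0.0778).

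Egfr, the receptor for all 5 ligands, did not pass the test within either week. At week 5 its values were 1.60, 1.11 and 1.60 FPKM in normal and 0.862 and 0.786 FPKM in PBOO samples. Both obstructed samples were the lowest of the 5. The log2 difference was -0.72 (95% interval -1.46 to 0.03, limma, adjusted p = 0.125), and without normal replicate 2 it was -0.88 and passed the unadjusted test (adjusted p = 0.118). It also passed that test with median-ratio scaling (-0.81, limma, adjusted p = 0.102), without a trend in the fit (adjusted p = 0.0623) and in 1 fit over all 11 samples, where it passed after adjustment as well (adjusted p = 0.0265). Week 4 values were 14.8, 9.97 and 11.05 FPKM in normal and 10.8, 9.40 and 8.44 FPKM in PBOO samples, a difference of -0.31 (95% interval -0.75 to 0.14, limma, adjusted p = 0.278).

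The proportion of the receptor transcripts differed between the samples of week 4 and those of week 5. Log2 values of normal samples correlated at 0.543 to 0.592 between the weeks and at 0.955 to 0.995 within a week. The part of the week in this proportion and that of other differences between the 2 sets of samples therefore cannot be told apart. The Erbb2 level divided by the Egfr level ran from 1.44 to 1.78 in normal samples of week 4 and from 26.5 to 34.8 in those of week 5. In PBOO samples of week 4 it was 1.76, 1.22 and 0.816, so replicate 3 was the only sample with more Egfr than Erbb2. In the PBOO samples of week 5 it was 99.0 and 75.9, above all normal samples.

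**Figure D2:**
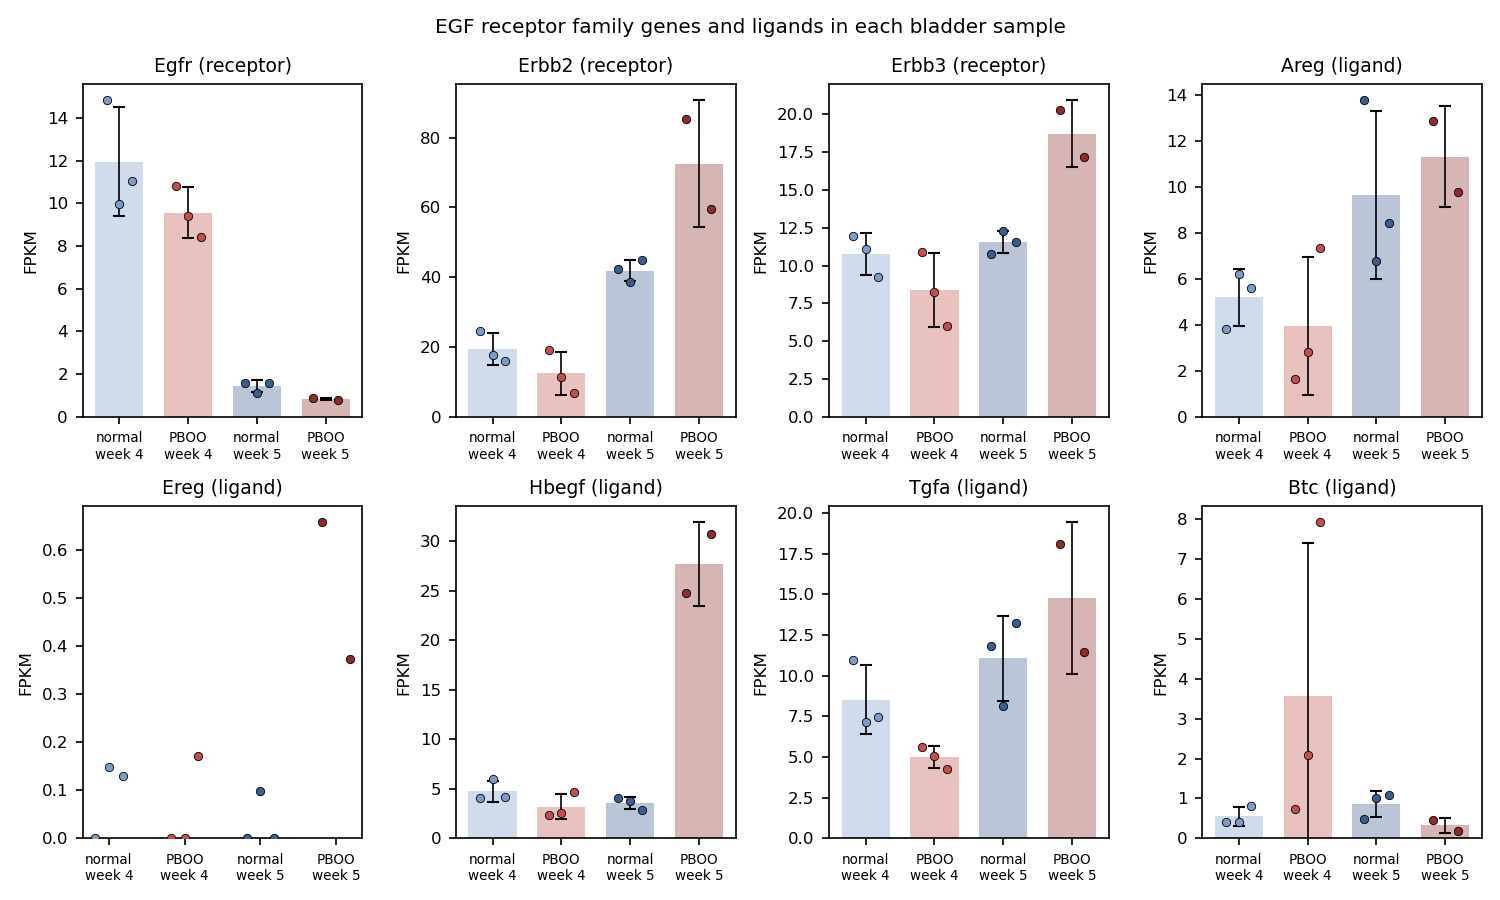
FPKM of each of the 8 members (panels, each with its own linear axis) in each sample, by condition and week, with group means and SD except for Ereg, which has values of 0. In the PBOO group of week 5, Hbegf lies at 24.7 and 30.7 FPKM while all other samples lie at 5.98 FPKM or below.

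Hbegf, which encodes heparin-binding EGF-like growth factor, showed the largest difference of any member tested. At week 5 it measured 4.07, 3.80 and 2.85 FPKM in normal bladders and 24.7 and 30.7 FPKM in PBOO bladders. The obstructed samples stood far above the other 9. It rose 7.60-fold (95% interval 5.33 to 10.9), a log2 difference of 2.93 (SE 0.21, limma, adjusted p = 0.000642). Of the 7 members tested, it was the only one past the 4-fold threshold used for week 5, which 3.59% of genes passed upward. Leaving out any 1 sample gave a log2 difference of 2.77 to 3.08. Higher sums of neutrophil, macrophage and lymphocyte markers and lower sums of smooth muscle and stromal markers were seen in the same 2 samples. So were a higher Krt5 and a lower Krt20, and the part of all these in the rise of Hbegf was not tested.

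At week 4 Hbegf measured 4.04, 5.98 and 4.16 FPKM in normal and 2.39, 2.57 and 4.64 FPKM in PBOO samples. PBOO replicates 1 and 2 lay under every normal sample and replicate 3 lay among them. Its log2 difference of -0.59 did not pass (SE 0.30, limma, adjusted p = 0.215), while without PBOO replicate 3 the difference was -0.88 and passed the unadjusted test (adjusted p = 0.115).

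Hbegf also changed its rank. It held 43.5% and 58.5% of the summed FPKM of the 5 ligands in the PBOO samples of week 5, against 11.1% to 19.2% in normal samples of that week. At week 4 its share was 21.0% to 30.1% in normal and 19.1% to 23.0% in PBOO samples. The ligand sum itself was 56.8 and 52.5 FPKM in the PBOO samples of week 5 and 19.8 to 30.1 FPKM in the normal ones.

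Tgfa, encoding TGF-alpha, was the member that fell at week 4 by the unadjusted test. Its values were 10.97, 7.16 and 7.46 FPKM in normal and 5.61, 5.05 and 4.28 FPKM in PBOO samples. The groups did not overlap, which was true of 34.9% of all genes tested in this direction. The level under obstruction was 0.596 of normal, a log2 difference of -0.75 (SE 0.21, limma, adjusted p = 0.0857). This ran alongside 11 of 12 tested urothelial markers that were lower at week 4, against 26.2% of all genes, and their part in it was not tested.

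At week 5 Tgfa measured 11.8, 8.14 and 13.2 FPKM in normal and 18.1 and 11.5 FPKM in PBOO samples. PBOO replicate 2 lay inside the normal range. The difference of 0.41 on the log2 scale did not pass the test (95% interval -0.31 to 1.12, limma, adjusted p = 0.325).

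Btc, encoding betacellulin, was the member that rose at week 4 by the unadjusted test. It measured 0.419, 0.408 and 0.821 FPKM in normal samples and 0.731, 2.08 and 7.93 FPKM in PBOO samples. The obstructed samples differed widely among themselves, and the lowest of them lay under the highest normal one. In the same 3 samples, in the same order, the smooth muscle markers summed to 51236, 62303 and 82457 FPKM, against 25652 to 27712 FPKM in normal samples. The 5 striated muscle markers summed to 362, 974 and 3051 FPKM, against 176 to 290 FPKM. That list was mixed, with Acta1 (log2 difference 2.88) and Tnnt3 (1.81) higher and Ckm (-0.38), Myh4 (-1.74) and Mylpf (-1.84) below 0. Acta1 alone averaged 1260 FPKM in the PBOO samples. The part of either list in the rise of Btc was not tested. The fold was 3.91, a log2 difference of 1.97 (SE 0.79, limma, adjusted p = 0.142), past the 2-fold threshold of week 4 that 2.46% of genes passed upward. The unadjusted call was lost without normal replicate 1 (difference 1.83), normal replicate 2 (1.82) or PBOO replicate 2 (2.05), with adjusted p-values in limma of 0.246 to 0.286. Without PBOO replicate 3, the highest sample, the difference was 1.11 and did not pass (limma, adjusted p = 0.272), and without PBOO replicate 1 it was 2.74 (adjusted p = 0.0358). With a pseudocount of 1 it was 1.24 and did not pass (limma, adjusted p = 0.168).

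At week 5 Btc measured 0.492, 1.003 and 1.09 FPKM in normal and 0.462 and 0.183 FPKM in PBOO samples. Both obstructed samples were the lowest of the 5, though PBOO replicate 1 lay close to normal replicate 1. Obstructed samples differed from normal ones by -1.20 (95% interval -2.54 to 0.13, limma, adjusted p = 0.146), which did not pass, and without PBOO replicate 1 by -1.70, which passed the unadjusted test (adjusted p = 0.0638). Without PBOO replicate 2 it was -0.71 (limma, adjusted p = 0.359), and with a pseudocount of 1 it was -0.49 (adjusted p = 0.163).

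Areg, encoding amphiregulin, varied widely within groups and passed the test in neither week. At week 4 it measured 3.82, 6.19 and 5.60 FPKM in normal and 1.66, 2.83 and 7.34 FPKM in PBOO samples. PBOO replicates 1 and 2 were the lowest of the 6 and PBOO replicate 3 was the highest. The log2 difference was -0.63 (95% interval -1.83 to 0.58, limma, adjusted p = 0.399), and without PBOO replicate 3 it was -1.20 and passed the unadjusted test (adjusted p = 0.121). Without PBOO replicate 1 it was -0.15 (limma, adjusted p = 0.802).

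At week 5 Areg measured 13.8, 6.76 and 8.44 FPKM in normal and 12.9 and 9.77 FPKM in PBOO samples, both within the normal range. Their log2 difference from normal was 0.28 (95% interval -0.52 to 1.08, limma, adjusted p = 0.548).

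Ereg, encoding epiregulin, was listed at 0 in 5 of the 11 samples. At week 4 its values were 0, 0.148 and 0.129 FPKM in normal and 0, 0 and 0.171 FPKM in PBOO samples. At week 5 they were 0, 0.0984 and 0 FPKM in normal and 0.659 and 0.373 FPKM in PBOO samples. The obstructed samples of week 5 were the highest of all 11. With no filter on low values, limma gave a log2 difference of 2.25, past the 4-fold threshold (adjusted p = 0.019), at week 5 and -0.36 (adjusted p = 0.665) at week 4. Because normal samples of week 5 held values of 0, the size of the week 5 difference rests on the pseudocount of 0.1. Ereg was not fitted with another pseudocount. Among the neighbours Btc, Areg and Ereg, the obstructed samples of week 5 held the lowest values of Btc, values of Areg within the normal range and the highest of Ereg, and the 3 genes were not tested against each other.

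The order of the levels within each group was read against the spread of its samples. In normal bladders of week 4, Erbb2 stood apart above Egfr, the samples of Egfr, Erbb3 and Tgfa overlapped in turn, and Areg and Hbegf overlapped below them. In PBOO bladders of week 4 the samples of Erbb2, Egfr and Erbb3 overlapped in turn, Tgfa lay apart below Erbb3, and Tgfa, Areg, Btc and Hbegf overlapped in turn. In replicate 3 of that group Egfr, Btc and Areg all lay above Erbb2. In normal bladders of week 5, Erbb2 stood apart above Erbb3, Tgfa and Areg, whose samples overlapped, and Hbegf, Egfr, Btc and Ereg followed, each apart from the next. In the PBOO samples of week 5 the order was Erbb2, Hbegf and Erbb3, each apart from the next, and Erbb3, Tgfa and Areg overlapped. Egfr lay apart below these, followed by Ereg and Btc, which overlapped.

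Whether obstruction had another effect at week 5 than at week 4 was tested as the difference between the effects of the 2 weeks, for which 7 members were tested. The difference passed the test in 5 of 7 members, 4 upward and 1 downward, with unadjusted and with adjusted p-values. Of 11296 genes tested, 34.6% passed upward and 15.7% downward unadjusted, and 26.5% and 13.5% adjusted. With median-ratio scaling the unadjusted calls over all genes split into 2539 upward and 2456 downward instead of 3904 and 1775, and Erbb2 and Tgfa lost their adjusted calls (limma, adjusted p = 0.0597 and 0.108). It was 3.52 for Hbegf (SE 0.40, limma, adjusted p = 0.000169), 1.495 for Erbb2 (SE 0.47, adjusted p = 0.0299) and 1.08 for Erbb3 (SE 0.30, adjusted p = 0.0171). Tgfa gave 1.15 (SE 0.37, limma, adjusted p = 0.0314) and Btc -3.17 (SE 1.07, adjusted p = 0.0383). For Egfr it was -0.41 (limma, adjusted p = 0.316) and for Areg 0.90 (adjusted p = 0.319). Without PBOO replicate 1 of week 5, the unadjusted call was lost for Erbb2 (1.24, limma, adjusted p = 0.098) and Tgfa (0.83, adjusted p = 0.117), and without PBOO replicate 2 of week 5 for Btc (-2.68, adjusted p = 0.121). Leaving out any 1 sample kept the adjusted call of Hbegf, whereas each of the other 4 lost it without at least 1 sample. Without PBOO replicate 3 of week 4, Areg gave 1.47 (limma, adjusted p = 0.0434) and Btc -2.31 (adjusted p = 0.049), and without PBOO replicate 1 of week 4 Btc gave -3.95 (adjusted p = 0.00617). With a pseudocount of 1 the difference of Btc was -1.72, and its adjusted call was lost (limma, adjusted p = 0.0764).

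**Figure D3:**
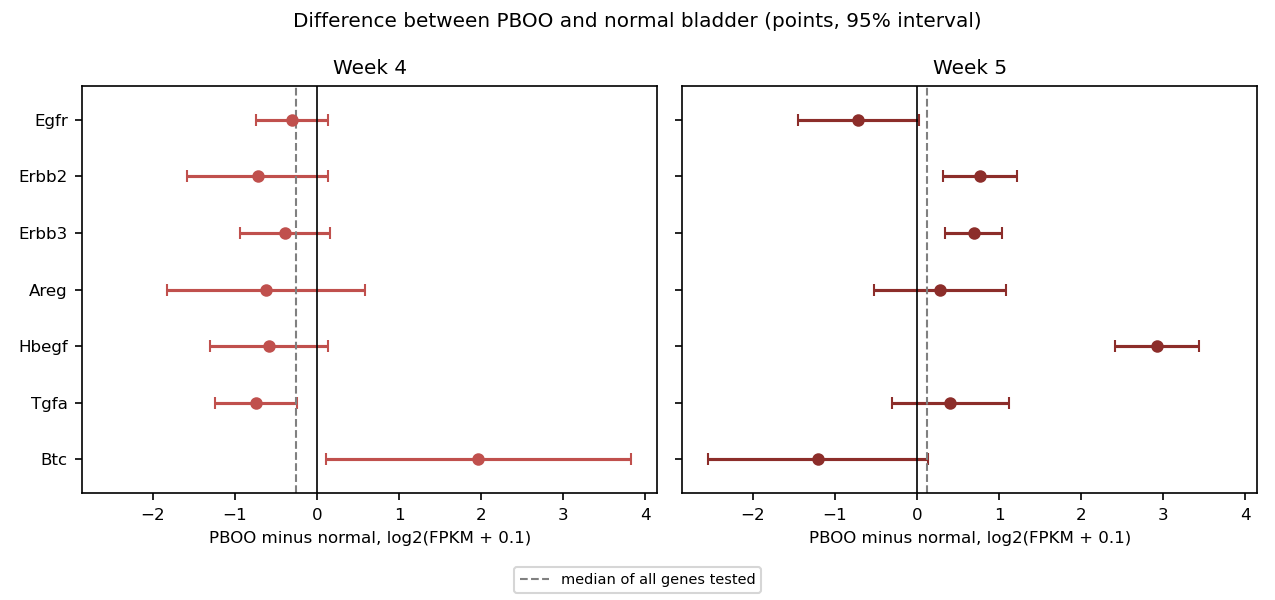
PBOO minus normal on the log2(FPKM + 0.1) scale for each tested member at each week, with 95% intervals from limma. Hbegf lies at 2.93 at week 5 and -0.59 at week 4, and Btc at -1.20 and 1.97.

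The direction of the members was close to that of the whole table at week 4 and at week 5. At week 4, 6 of 7 members lay below 0, as did 75.8% of all genes tested, and the median log2 difference was -0.59 over members and -0.25 over all genes. At week 5, 5 of 7 members lay above 0 against 58.1% of genes, with medians of 0.41 and 0.12. Scaling each sample by the median ratio moved the median of all genes at week 4 to -0.01. Under it Tgfa and Btc passed the unadjusted test as before, and Tgfa stood at -0.50 (limma, adjusted p = 0.202), Btc at 2.19 (adjusted p = 0.215) and Egfr at -0.06, and all genes past the 2-fold threshold split into 412 higher and 117 lower instead of 278 and 277.

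The genes around the receptors were read as fixed lists, of which 64 of 71 genes were tested at week 4 and 66 at week 5. At week 4, 1 was higher and 12 were lower, and at week 5, 19 were higher and 7 lower, by the unadjusted test. These 12 of 64 genes lower at week 4 stand against the 26.2% of all genes that were lower, and the 19 and 7 of 66 at week 5 against 24.6% higher and 18.8% lower. With adjusted p-values the counts were 0 higher and 1 lower at week 4, and 15 higher and 4 lower at week 5. Of all genes, 0.512% passed in either direction at week 4, and 15.5% were higher and 14.5% lower at week 5.

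Of the shedding machinery, 4 of 6 genes rose and 1 fell at week 5 with adjusted p-values, against 15.5% of all genes higher and 14.5% lower, with a median log2 difference of 1.10 against 0.12 over all genes. Adam17, the main sheddase of these ligands, measured 17.0, 21.8 and 16.9 FPKM in normal and 39.3 and 39.2 FPKM in PBOO samples of week 5. Both obstructed samples lay above the normal ones, by 1.09 on the log2 scale (limma, adjusted p = 0.00543). Rhbdf1 and Rhbdf2, the inactive rhomboids that carry ADAM17 to the cell surface, rose by 1.11 (limma, adjusted p = 0.0116) and 1.14 (adjusted p = 0.00388). Rhbdl2, a rhomboid protease that can cut EGF, rose by 1.22 (limma, adjusted p = 0.00651), and Timp3, the tissue inhibitor of ADAM17, fell by 1.92 (adjusted p = 0.00145). Timp3 is also made by stromal cells, whose markers were nearly lacking in these samples, and their part in its fall was not tested.

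At week 4, 1 of the 6 shedding genes was higher and 2 were lower by the unadjusted test, against 5.76% and 26.2% of all genes. Timp3 rose by 0.59 (limma, adjusted p = 0.131), while Rhbdl2 fell by 0.84 (adjusted p = 0.0788) and Rhbdf1 fell by 0.60 (adjusted p = 0.128). Adam17 measured 25.1, 26.3 and 25.4 FPKM in normal and 24.98, 20.7 and 16.5 FPKM in PBOO samples. The 3 obstructed samples were the lowest, the first by a small margin, and the log2 difference of -0.32 did not pass (limma, adjusted p = 0.203).

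Of the other receptor and ligands, none of 5 tested genes passed at week 4, when 5.76% of all genes rose and 26.2% fell. At week 5, 1 of 3 rose, when 24.6% of all genes rose and 18.8% fell. Nrg4, a neuregulin, rose by 0.85 at week 5 (limma, adjusted p = 0.0234). Nrg2, another neuregulin, had groups that did not overlap in both weeks, with a log2 difference of -0.74 at week 4 (limma, adjusted p = 0.162) and 0.50 at week 5 (adjusted p = 0.205), neither of which passed. Such groups were found for 34.9% of all genes tested with PBOO lower at week 4, and for 35.3% with PBOO higher at week 5. Egf itself measured 1.56, 1.44 and 1.16 FPKM in normal and 1.29, 0.293 and 0.777 FPKM in PBOO samples of week 4, a log2 difference of -0.92 that did not pass (limma, adjusted p = 0.228), and lay under the filter at week 5. Erbb4, the other neuregulin receptor, was listed at 0 in 10 of 11 samples.

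Genes that restrain the receptors or feed back on ERK numbered 18 tested at week 5, of which 7 were higher and 2 lower by the unadjusted test, against 24.6% and 18.8% of all genes, and 6 and 2 with adjusted p-values, against 15.5% and 14.5%. Socs3, a suppressor of cytokine signalling, rose by 2.74 (limma, adjusted p = 0.00543), Dusp4, a nuclear phosphatase of ERK, by 1.63 (adjusted p = 0.0122) and Lrig3, a transmembrane modulator of receptors, by 0.99 (adjusted p = 0.0145). Dusp5, another nuclear ERK phosphatase, rose by 0.96 (limma, adjusted p = 0.00488) in the obstructed samples of that week. Lrig1, which promotes the breakdown of EGF receptors, fell by 0.88 (limma, adjusted p = 0.0314) and Socs5 fell by 0.53 (adjusted p = 0.0491). At week 4 none of 15 rose and 2 fell, namely Dusp5 by 0.70 (limma, adjusted p = 0.0805) and Spry1, an inhibitor of RAS-ERK signalling, by 0.54 (adjusted p = 0.069). Lrig1 and Lrig3 were listed at 0 in all week 4 samples.

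The relay from the receptors to ERK and AKT had 0 genes higher and 3 lower of 24 at week 4 and 5 higher and 3 lower of 25 at week 5. Among all genes 5.76% were higher and 26.2% lower at week 4, and 24.6% higher and 18.8% lower at week 5. The median log2 difference of the relay was -0.11 at week 4 and 0.06 at week 5. At week 4 the genes that fell were Mapk3, encoding ERK1, by 0.43 (limma, adjusted p = 0.0666), Araf by 0.32 (adjusted p = 0.0987) and Hras by 0.31 (adjusted p = 0.123). At week 5 Pik3cb, a catalytic PI3K subunit, rose by 1.27 (limma, adjusted p = 0.0164) and Nras by 0.63 (adjusted p = 0.0209). These were the 2 of 25 that passed with adjusted p-values, against 15.5% of all genes higher and 14.5% lower. By the unadjusted test Pik3r1, a regulatory PI3K subunit, also rose by 0.70 (limma, adjusted p = 0.091), and Mapk3 fell by 0.61 (adjusted p = 0.0773).

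Among genes known to respond to ERK, 5 of 14 fell and none rose at week 4, when 26.2% of all genes fell and 5.76% rose, and 2 rose and 1 fell at week 5, when 24.6% rose and 18.8% fell. Fos, an immediate early transcription factor, fell by 2.04 at week 4 (limma, adjusted p = 0.0791), Egr1, another, by 2.05 (adjusted p = 0.144) and Ier2 by 0.98 (adjusted p = 0.0538). Such early genes varied widely between normal samples, with Egr1 at 331, 577 and 12.3 FPKM in those of week 5. Phlda1 fell by 0.86 at week 4 (limma, adjusted p = 0.0483) and rose by 1.54 at week 5 (adjusted p = 0.011). Plaur, the urokinase receptor, rose by 1.22 at week 5 (limma, adjusted p = 0.0172), and Ccnd1, encoding the cell cycle protein cyclin D1, fell by 0.83 (adjusted p = 0.00365).

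**Figure D4:**
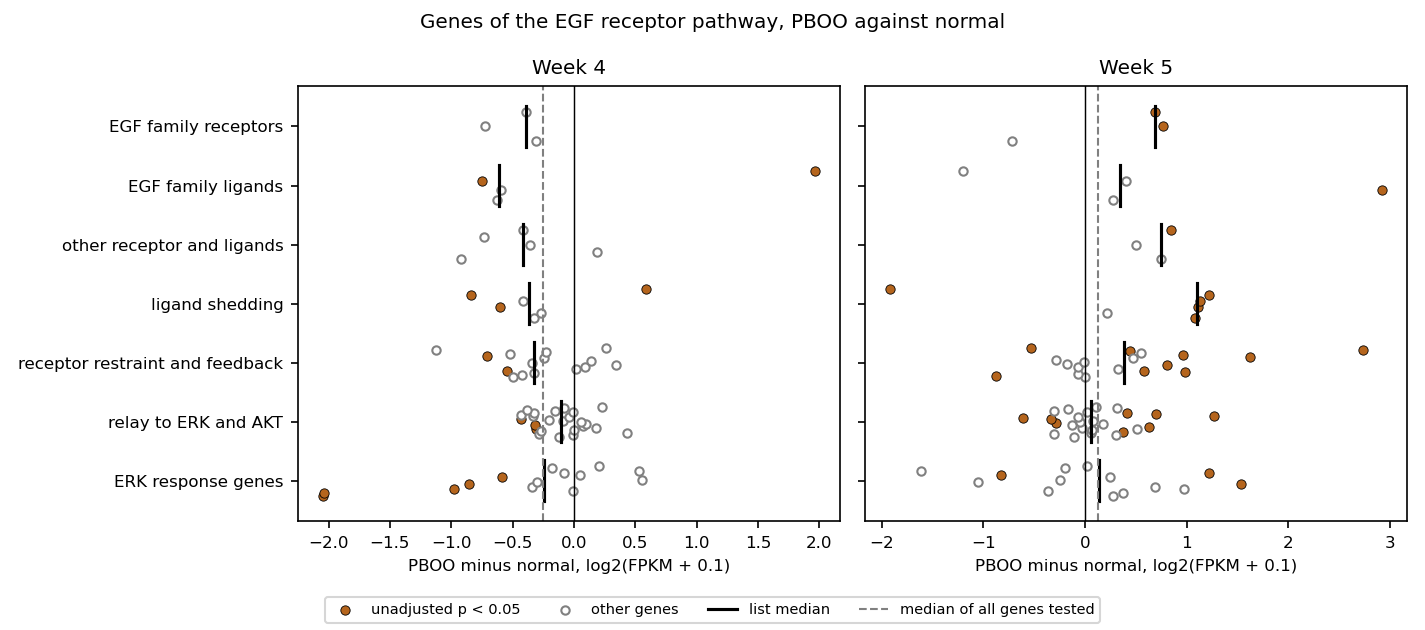
PBOO minus normal on the log2(FPKM + 0.1) scale for the tested genes of each pathway list at week 4 and week 5, 1 point a gene. The median of the shedding list lies at -0.37 at week 4 and at 1.10 at week 5.

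For each member, the genes closest to it were sought as those with the smallest root mean square difference of log2 values centred within each week, over all 11 samples and 9970 genes. Hbegf was closest to Nfkbiz, an inducible nuclear regulator of NF-kappaB, at 0.163, with Casp4, an inflammatory caspase, next at 0.379. The group means of Nfkbiz were 6.19 FPKM in normal and 4.23 FPKM in PBOO samples of week 4, and 5.71 and 39.2 FPKM at week 5. Erbb2 was closest to Notch1, a receptor of cell fate signalling, at 0.0985 and Kdf1 at 0.103, and Erbb3 to Phf12 at 0.0879 and Pex6 at 0.0885. Tgfa was closest to Qtrt1 at 0.101 and Rhbdd2 at 0.102, and Egfr to Ehd4 at 0.119 and Pars2 at 0.121. The nearest genes of Areg (Hrc at 0.360 and Fabp4 at 0.363), Ereg (N4bp2l1 at 0.423 and Atp1b1 at 0.430) and Btc (Fjx1 at 0.584 and Prss23 at 0.594) lay farther off.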

How the data were processed

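RNA-seq values of 11 rat bladder samples were analysed. Per the study's methods, the authors trimmed reads with SeqPrep and Sickle, aligned them with HISAT2, assembled transcripts with StringTie and counted with featureCounts, and they deposited FPKM values in 1 gene table. The columns of week 4 carry the word Input and those of the week 5 controls the word adult. The submitters' processing notes also name limma and the build mm10, a mouse build, although the tissue is rat. The annotation and the use of strand are not given in the sources used here. The table has no counts, so depth is unknown. The authors' methods also name DESeq2, which needs counts and was not used here.

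Groups came from the labels. Values were taken as log2(FPKM + 0.1), genes with a mean under 0.5 FPKM in a comparison were left out, and PBOO was compared with normal within each week by limma 3.58.1 in R 4.3.3 (empirical Bayes with trend, Benjamini-Hochberg adjustment over all genes tested). The difference between weeks was tested as a contrast in 1 fit over all 11 samples. Genes were called at an unadjusted p of 0.05, with changes of at least 2-fold (week 4) and 4-fold (week 5) where a fold threshold is mentioned. The members and gene lists were chosen with earlier results of these data known. All members were named, and from each other pathway list up to 3 genes per direction and week with the largest log2 change at an unadjusted p under 0.05, together with list genes whose groups did not overlap in both weeks. Some genes that this rule names are not reported here. The 2 genes most like each member were sought among genes averaging 1 FPKM or more in each week.

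Promoter sequences came from the RefSeq table of GRCr8, in which 6 of 8 members matched (not Erbb3 or Ereg). Nrg3 and Trp63 of the fixed lists were not analysed here. No pair of samples held identical values. The fit was tested on simulated data in which 200 genes were changed by 2 on the log2 scale. Unadjusted, 193 were called among 11320 genes at week 4, 187 among 13685 at week 5 and 185 among 11296 in the difference. With adjusted p-values 169, 131 and 140 were called. Of the unchanged genes, 5.41%, 5.46% and 5.19% were called unadjusted. Within a week, only Hbegf at week 5 differed by more than 2 among the members tested, and smaller changes were not simulated. Alternatives were other pseudocounts, filters, scalings and models, and leaving out each sample in turn. Python 3.11.15 with pandas 2.3.3, numpy 2.4.6, scipy 1.17.1 and matplotlib 3.10.9 made the tables and figures.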

Additional observations from a re-analysis of the deposited data

Results flagged for a closer look

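The effect of obstruction differed between week 4 and week 5 for 5 of the 7 members tested, by a limma contrast of the effects with an adjusted p under the threshold of 0.05, which 26.5% of all 11296 genes passed upward and 13.5% downward. The effect at week 5 minus that at week 4, on the log2(FPKM + 0.1) scale, was 3.52 for Hbegf, 1.495 for Erbb2, 1.08 for Erbb3, 1.15 for Tgfa and -3.17 for Btc. The weeks also differed in the makeup of the PBOO samples, with smooth muscle markers summing to 51236 to 82457 FPKM at week 4 and to 996 to 1863 FPKM at week 5. They differed as sets of samples too, with 4871 genes at 0 in every week 4 sample and 403 in every week 5 sample. The part of either in the differences was not tested. No test for single samples that stand apart was run, since no group held more than 3.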

How the results depend on the processing

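No member's difference changed sign in 335 recomputed differences, of which 311 kept their side of the unadjusted threshold, 15 came to pass it and 9 no longer passed it. Other filters, a fit without a trend and 1 fit over all 11 samples alter the p-value and not the difference. Those settings therefore could not change a sign. With a pseudocount of 1, 336 genes instead of 555 passed at week 4 (with a 2-fold change) and 726 instead of 1432 at week 5 (with a 4-fold change), and 1 member instead of 2 passed at week 4. Leaving out 1 sample at a time gave 352 to 1024 genes at week 4 (352 without PBOO replicate 3 and 1024 without PBOO replicate 1). The members past the test at week 4 were then 1 to 4 unadjusted and 0 to 2 adjusted. At week 5 the adjusted count of members was 1 to 3 (1 without normal replicate 1 or 3), and in the difference between weeks 3 to 6 members passed unadjusted (3 without PBOO replicate 1 of week 5) and 2 to 5 adjusted (2 without normal replicate 1 or PBOO replicate 2 of week 4, or normal replicate 2 or PBOO replicate 1 of week 5). Without a trend in the fit, 5 members instead of 3 passed at week 5. In 1 fit over all 11 samples Erbb2 lost its call at week 5 (adjusted p = 0.128) and Egfr gained one after adjustment (adjusted p = 0.0265). With median-ratio scaling 3 members instead of 5 passed the adjusted test of the difference between weeks, and with quantile normalization 2. Median-ratio scaling split the genes passing the unadjusted test of that difference into 2539 higher and 2456 lower instead of 3904 and 1775. It also moved levels by more than 1 SD to 0.927 FPKM for Egfr and 21.1 FPKM for Erbb3 in PBOO samples of week 5, 48.6 FPKM for Erbb2 and 13.4 FPKM for Erbb3 in normal samples of week 5, and 8.71 FPKM for Erbb3 in normal samples of week 4.

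Same-numbered samples deviated together with correlations of 0.154, -0.0241 and 0.232 at week 4 and -0.000813 and 0.124 at week 5. Samples with different numbers gave -0.21 to 0.0939 at week 4 and -0.161 to 0.161 at week 5. With so few samples, and with 2 PBOO samples at week 5 whose deviations mirror each other, these values cannot decide whether the numbers pair the samples. With the replicate number as a block, 597 genes passed at week 4 and 1421 at week 5, and 1 member instead of 3 passed the adjusted test at week 5. Depth is unknown, so the counting error of low values such as those of Ereg and Btc could not be estimated. With 2 PBOO samples at week 5 the spread of that group rests on 1 difference.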
